A study of Mus musculus with 13 samples.

Results

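The Hox genes were followed in tail (caudal) vertebral bone of mice, as every gene whose annotated symbol is Hox, a cluster letter from a to d and a paralogue number from 1 to 13. On the Illumina bead arrays used, 38 such genes were measured, with 50 of 25697 probes in all. RNA was measured on 13 arrays, 1 per sample, all from mice aged 9 months on a C57BL/6x129Sv/B6 hybrid background. Bone without lesion came from 4 WT samples and from 4 Prkaca+/- samples, which lack 1 allele of the gene for the Cα catalytic subunit of protein kinase A. Bone lesions came from 3 Prkar1a+/- samples, which lack 1 allele of the gene for the RIα regulatory subunit, and from 2 samples heterozygous for both genes, called double heterozygotes here. No bone without lesion from a Prkar1a+/- mouse was measured, so the lesion and the Prkar1a genotype cannot be told apart. Replicates are numbered without a statement that each is another mouse, and p-values therefore cover the spread between these samples, which may be technical.

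Hox genes encode homeodomain transcription factors that give cells their position along the head-to-tail axis. In mammals they lie in 4 clusters, Hoxa to Hoxd, and genes with the same number in different clusters (paralogues) descend from 1 ancestor. Low numbers lie at the 3′ end of a cluster and are switched on early and far forward in the embryo, and high numbers lie at the 5′ end and act in the lumbar, sacral and tail segments and in the distal limb. Skeletal and stromal cells of the adult keep part of this code, so the Hox genes read in a piece of bone depend on where it came from.

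The arrays themselves were alike in coverage, with 13555 to 14831 probes per array at a detection p-value under 0.01. This deposited p-value states how often a control probe without a target would be as bright, and a gene is called detected on an array where 1 of its probes had a value under 0.01. Prkar1a was 1.40 ± 0.10 (SE) lower in the lesions on the log2 scale (limma adjusted p = 5.37e-07), and the mean log2 level of Prkaca was 11.44 in WT bone (SD 0.12, n = 4) against 10.58 in Prkaca+/- bone (SD 0.30, n = 4). Prkaca was also low in the lesions, at 10.37 (SD 0.54, n = 3) in Prkar1a+/- lesions, whose label names no Prkaca deletion, and 9.44 (SD 0.35, n = 2) in double heterozygote lesions, so its level is no clean check of the genotype. Lesion bone also differed in its mix of cell markers. All 7 tested osteoblast markers and all 6 osteoclast markers were higher in the lesions, and 7 of 9 skeletal muscle markers were lower. Dmp1, Ocstamp and Calcr among these were detected on lesion arrays only, so they entered the test through the group where they were higher. Among all tested probes, 25.1% were higher and 26.2% lower. The summed intensity of the muscle markers lay between 150200 and 183200 in the 8 arrays without lesion. It was 138500, 27140 and 78000 in Prkar1a+/- lesions 1, 2 and 3, and 92060 and 98920 in the double heterozygote lesions. The osteoblast sum ran from 5697 to 13510 without lesion and from 68360 to 111500 with it, so bone-forming cells were present by their markers on every array. In whole tissue, fewer cells of a type and less RNA per cell cannot be told apart. The fit with muscle markers given below cannot separate muscle from lesion, and the part of these cell types in the Hox differences was otherwise not tested.

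Of the 38 measured Hox genes, 19 were detected on all 13 arrays, 7 on some and 12 on none. Over all probes, 46% were detected on all 13 arrays and 33.5% on none. These shares count probes, while a Hox gene was counted by its best probe, so they are not like for like. By probe, 19 of 50 Hox probes were detected on no array. Each array detected between 21 and 24 Hox genes, and this range was the same in the 5 lesion arrays and the 8 arrays without lesion. The longest unbroken run lay in the Hoxb cluster, with Hoxb2, Hoxb3, Hoxb4, Hoxb5, Hoxb6 and Hoxb7 on every array, and Hoxb9 besides. Hoxa5, Hoxa7, Hoxa9, Hoxa11 and Hoxa13 were detected on every array in the Hoxa cluster. In the Hoxc cluster this held for Hoxc6, Hoxc9, Hoxc10 and Hoxc13, and in the Hoxd cluster for Hoxd4, Hoxd8 and Hoxd9.

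Read by paralogue number, detection had no single gap. Neither measured gene of group 1 was detected on any array, and both measured genes of group 7 were detected on all. Group 9, which acts in the thoracic and lumbar segments, was the only group of 4 measured genes with all of them on all 13 arrays. In groups 10 to 13, which act in the lumbar, sacral and tail segments and the limb, Hoxc10, Hoxa11, Hoxa13 and Hoxc13 were detected on all arrays. Taken in stretches, 2 of 7 measured genes of groups 1 to 3 were detected on all arrays, 9 of 15 of groups 4 to 8 and 8 of 16 of groups 9 to 13.

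The 12 genes detected on no array were Hoxa3, Hoxa6, Hoxa10, Hoxb1, Hoxb8, Hoxb13, Hoxc5, Hoxc8, Hoxd1, Hoxd3, Hoxd12 and Hoxd13. Their lowest detection p-values ran from 0.0416 for a Hoxb1 probe and 0.0508 for Hoxc8 to 0.370 for Hoxd12. Of these genes 9 rested on 1 probe, and a probe that stayed in the background does not show that the transcript was absent. Probes of a detected gene also failed, since 1 of 3 Hoxa9 probes and 1 of 3 Hoxa13 probes were detected on no array.

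The 7 genes detected on some arrays were near background. Hoxa2 was detected in 5 of 5 lesion arrays and 3 of 8 others. Hoxa4 was detected in 3 of 5 and 6 of 8, Hoxc4 in 1 of 5 and 1 of 8, and Hoxd11 in 1 of 5 (a double heterozygote lesion) and 0 of 8. Hoxc11 was detected in 2 of 5 lesion arrays and 5 of 8 others, Hoxc12 in 3 of 5 and 8 of 8, and Hoxd10 in 3 of 5 and 7 of 8. These counts were not tested.

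**Figure D1:**
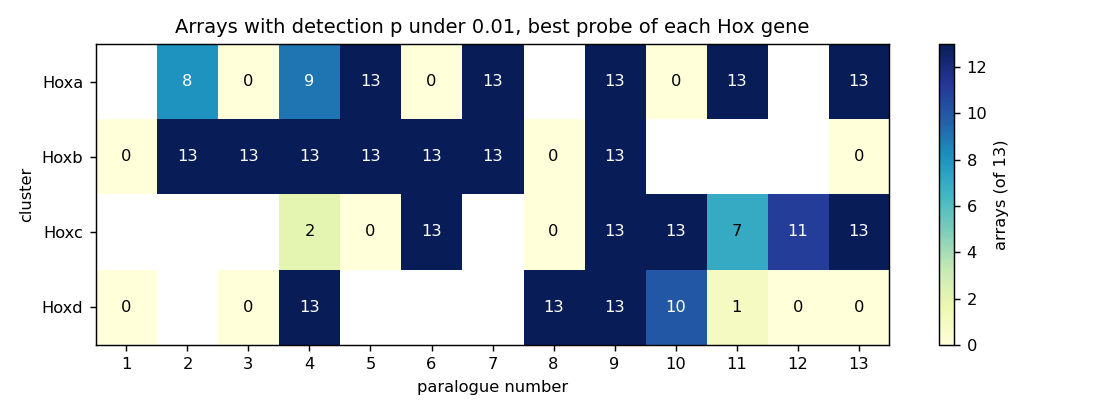
Number of the 13 arrays on which each Hox gene was detected (detection p-value under 0.01), by cluster (rows) and paralogue number (columns). White cells hold no gene analysed here. Counts of 13 fill the Hoxb row from 2 to 7 and the whole of column 9, and column 1 holds counts of 0.

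Probe sequences were not used here. Promoters are shown for Hoxa11, Hoxb4, Hoxd9 and Hoxd10, which differed between lesion and other bone, to give their sequence context. RefSeq (GRCm38.p6) promoter windows were at hand for 22 of the 38 genes, including 5 of the 13 that passed the test below. Protein kinase A phosphorylates CREB, which binds the cAMP response element, and the core letters TGACG of that element were sought on both strands in the 250 bases before each start, together with TGATNNAT, a joint site of Hox proteins and their Pbx partners. TGACG occurs in 17.8% of all 32851 such windows and TGATNNAT in 7.68%. Among 24 windows of Hox genes, 7 held TGACG and 4 held TGATNNAT. The window of Hoxa11, which was higher in lesions, held TGACG at base -202 before the start and its reverse complement, CGTCA, at base -17. The windows of Hoxb4, Hoxd9, Hoxd10 and Hoxa9 held neither motif, and that of Hoxa9 is not printed. A match describes letters only. Capitals below mark these matches, and each sequence is given 5′ to 3′ on the gene's own strand.
Hoxa11, chr6:52245811-52246060, minus strand: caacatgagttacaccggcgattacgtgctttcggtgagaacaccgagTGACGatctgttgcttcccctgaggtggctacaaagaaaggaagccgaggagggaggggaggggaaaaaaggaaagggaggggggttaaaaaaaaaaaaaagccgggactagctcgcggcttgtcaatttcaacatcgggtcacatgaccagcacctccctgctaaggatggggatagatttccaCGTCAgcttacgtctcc
Hoxb4, chr11:96318017-96318266, plus strand: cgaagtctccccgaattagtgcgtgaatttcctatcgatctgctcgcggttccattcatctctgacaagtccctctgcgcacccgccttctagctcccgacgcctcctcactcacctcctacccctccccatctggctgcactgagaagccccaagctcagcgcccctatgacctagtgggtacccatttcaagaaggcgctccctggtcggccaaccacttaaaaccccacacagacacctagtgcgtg
Hoxd9, chr2:74697513-74697762, plus strand: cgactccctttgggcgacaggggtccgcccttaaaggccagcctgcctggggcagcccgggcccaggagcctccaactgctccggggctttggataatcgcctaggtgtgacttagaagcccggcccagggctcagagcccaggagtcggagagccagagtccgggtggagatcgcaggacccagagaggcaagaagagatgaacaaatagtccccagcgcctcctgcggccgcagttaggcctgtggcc
Hoxd10, chr2:74691641-74691890, plus strand: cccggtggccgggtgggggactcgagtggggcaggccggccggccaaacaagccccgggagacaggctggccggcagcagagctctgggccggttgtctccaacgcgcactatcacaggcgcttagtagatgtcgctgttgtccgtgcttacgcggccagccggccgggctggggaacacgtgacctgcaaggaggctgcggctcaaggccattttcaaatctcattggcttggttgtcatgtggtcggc

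The series was designed to set lesions against the other bone. Hoxb2 and Hoxb9 rose more than 5-fold, Hoxb5 by 2.21-fold, and Hoxb4, Hoxb6, Hoxb7 and Hoxa11 by 1.43-fold to 1.74-fold. Hoxc10 fell 2.77-fold and Hoxd9 1.95-fold, and Hoxd10, Hoxc12, Hoxc9 and Hoxa9 fell by 1.21-fold to 1.71-fold. A second Hoxa9 probe gave a log2 difference of 0.15 (limma adjusted p = 0.283), so the Hoxa9 call counted here rests on its first probe. Of 25 tested Hox genes, 7 were higher and 6 lower at a limma adjusted p-value under 0.05, which is adjusted over all 16226 tested probes. Over all tested probes 25.1% were higher and 26.2% lower, so the share of Hox genes called was close to that of the array as a whole. Counted by cluster, in Hoxb 6 of 7 tested genes were higher and 0 lower. In Hoxc, 0 of 7 were higher and 3 lower, and in Hoxd 0 of 4 were higher and 2 lower. In Hoxa, 1 of 7 was higher and 1 lower. The median log2 difference was 0.58 in Hoxb, 0.03 in Hoxa, -0.34 in Hoxc and -0.55 in Hoxd, beside -0.01 over all 10992 tested genes. By paralogue number, 5 of 14 tested genes of groups 1 to 8 were higher and 0 lower, and 2 of 11 of groups 9 to 13 were higher and 6 lower. The 5 were Hoxb2, Hoxb4, Hoxb5, Hoxb6 and Hoxb7, so the counts by number and by cluster rest on the same genes there.

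**Figure D2:**
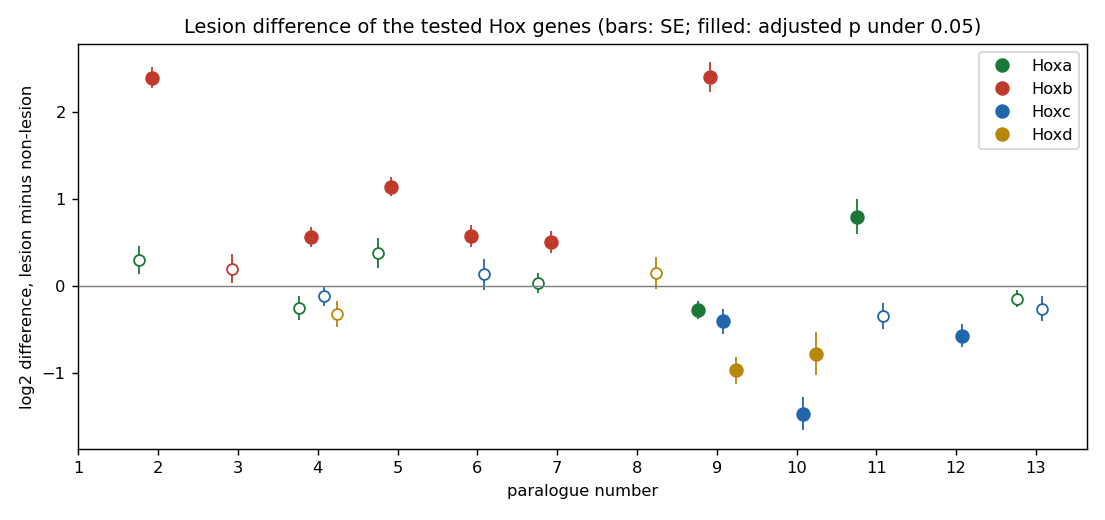
Log2 difference, lesion minus non-lesion (vertical axis), of the 25 tested Hox genes by paralogue number (horizontal axis), with bars for the standard error and colours for the cluster. Filled points passed an adjusted p of 0.05. All filled Hoxb points lie above 0, and all filled Hoxc and Hoxd points below it.

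Hoxb2, a 3′ gene known for patterning the hindbrain, gave the largest rise together with Hoxb9. All values below are log2 of background-corrected, quantile-normalised intensity, in replicate order, and are compared within a probe only. Hoxb2 read 6.60, 6.37, 6.62 and 6.78 in the WT arrays and 6.56, 6.38, 6.09 and 6.21 in the Prkaca+/- arrays, against 8.99, 9.20 and 9.41 in the Prkar1a+/- lesions and 8.67 and 8.34 in the double heterozygote lesions. Every lesion array lay above every array without lesion. The difference was 2.40 ± 0.12 (SE, 5 against 8 arrays; limma adjusted p = 1.32e-07), or 5.28-fold, and the exact two-sided permutation p of 0.00155 is the smallest these group sizes allow.

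Hoxb9, at the 5′ side of the stretch of neighbouring Hoxb genes, acts in the thoracic segments. Hoxb9 read 6.50, 5.88, 6.27 and 5.85 in the WT arrays and 5.91, 6.04, 5.30 and 5.68 in the Prkaca+/- arrays, against 8.48, 8.60 and 7.89 in the Prkar1a+/- lesions and 8.44 and 8.24 in the double heterozygote lesions. Both kinds of lesion stood above all other arrays. Hoxb9 was 5.29-fold higher in lesions, a log2 difference of 2.40 ± 0.17 (SE; limma adjusted p = 6.94e-07). Between these ends lies Hoxb5, which helps to place the shoulder girdle. Hoxb5 read 8.21, 8.20, 8.06 and 7.98 in the WT arrays and 8.16, 7.84, 7.76 and 7.88 in the Prkaca+/- arrays, against 9.23, 9.34 and 9.03 in the Prkar1a+/- lesions and 9.29 and 8.93 in the double heterozygote lesions. The groups did not overlap, and the difference was 1.14 ± 0.11 (SE; limma adjusted p = 5.77e-06).

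The other Hoxb genes rose less. Hoxb4 acts in the neck vertebrae and in blood stem cells. Hoxb4 read 8.91, 8.58, 8.79 and 8.57 in the WT arrays and 8.64, 8.69, 8.18 and 8.40 in the Prkaca+/- arrays, against 9.30, 9.30 and 9.03 in the Prkar1a+/- lesions and 9.09 and 9.13 in the double heterozygote lesions. Its 5 lesion arrays lay above the 8 others, with a difference of 0.57 ± 0.12 (SE; limma adjusted p = 0.00137). Hoxb6 gave 5.97, 5.81, 6.03 and 5.62 in the WT arrays and 5.48, 5.42, 5.43 and 5.38 in the Prkaca+/- arrays, against 6.16, 6.22 and 6.42 in the Prkar1a+/- lesions and 5.80 and 6.55 in the double heterozygote lesions. Here the groups overlapped, since double heterozygote lesion 1 lay below 3 WT arrays, and the difference was 0.58 ± 0.13 (SE; limma adjusted p = 0.00239). Hoxb7 stood at 8.29, 8.58, 7.99 and 8.15 in the WT arrays and 8.40, 7.98, 7.84 and 8.10 in the Prkaca+/- arrays, against 8.73, 8.54 and 8.77 in the Prkar1a+/- lesions and 8.58 and 8.78 in the double heterozygote lesions. WT replicate 2 lay above 2 lesion arrays, and the Hoxb7 difference was 0.51 ± 0.13 (SE; limma adjusted p = 0.00495). Hoxb3, which lies between Hoxb2 and Hoxb4, did not pass, at 0.20 ± 0.17 (SE; limma adjusted p = 0.326; 95% interval -0.15 to 0.56).

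Hoxa11, needed for the zeugopod of the limb and the sacral vertebrae, was the only tested gene of groups 10 to 13 that was higher in lesions. Hoxa11 read 7.94, 8.10, 7.49 and 7.83 in the WT arrays and 7.91, 8.0, 7.47 and 7.79 in the Prkaca+/- arrays, against 8.60, 9.17 and 8.06 in the Prkar1a+/- lesions and 9.05 and 8.20 in the double heterozygote lesions. Its lesion values were spread widely, and Prkar1a+/- lesion 3 lay below WT replicate 2. The difference was 0.80 ± 0.20 (SE; limma adjusted p = 0.00496).

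Among the genes that fell, Hoxc10, which patterns the lumbar and sacral spine and the hind limb, fell furthest. Hoxc10 read 9.14, 9.33, 9.97 and 9.45 in the WT arrays and 9.64, 9.69, 9.22 and 9.52 in the Prkaca+/- arrays, against 8.47, 7.35 and 7.87 in the Prkar1a+/- lesions and 8.04 and 8.27 in the double heterozygote lesions. All lesion arrays lay below all others, with a difference of -1.47 ± 0.19 (SE; limma adjusted p = 6.11e-05). A second Hoxc10 probe gave -1.39 ± 0.18 (SE; limma adjusted p = 6.09e-05). Hoxd9 read 6.83, 6.11, 6.70 and 6.56 in the WT arrays and 6.70, 6.84, 6.14 and 6.64 in the Prkaca+/- arrays, against 5.74, 5.23 and 5.49 in the Prkar1a+/- lesions and 5.59 and 5.84 in the double heterozygote lesions. Hoxd9, which acts with Hoxa9 in the upper limb and the lumbosacral spine, was likewise lower on every lesion array than on any other, with a difference of -0.97 ± 0.16 (SE; limma adjusted p = 0.000297).

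Hoxd10, a neighbour of Hoxd9, patterns the lumbar cord and hind limb. It was close to background in the Prkar1a+/- lesions, detected in 1 of 3, and was detected in 2 of 2 double heterozygote lesions. Hoxd10 read 6.61, 5.73, 6.72 and 5.91 in the WT arrays and 6.31, 6.61, 5.22 and 6.25 in the Prkaca+/- arrays, against 5.05, 5.33 and 4.74 in the Prkar1a+/- lesions and 5.93 and 5.57 in the double heterozygote lesions. WT replicates 2 and 4 and Prkaca+/- replicate 3 lay within the range of the lesions. The difference was -0.77 ± 0.24 (SE; limma adjusted p = 0.0178), with the value of Prkar1a+/- lesion 3 filled from its detection p-value. Without double heterozygote lesion 2 it was -0.68 (limma adjusted p = 0.0780).

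Hoxc12 and Hoxc9 lie on either side of Hoxc10 and Hoxc11 in their cluster. Hoxc12 read 5.74, 5.52, 6.19 and 6.07 in the WT arrays and 5.77, 5.60, 5.86 and 5.89 in the Prkaca+/- arrays, against 5.58, 5.30 and 5.10 in the Prkar1a+/- lesions and 5.09 and 5.31 in the double heterozygote lesions. Only Prkar1a+/- lesion 1 reached into the range of the other arrays, and the difference was -0.57 ± 0.13 (SE; limma adjusted p = 0.00343). Hoxc9 read 10.07, 9.88, 10.23 and 9.91 in the WT arrays and 10.22, 9.84, 10.32 and 10.06 in the Prkaca+/- arrays, against 9.96, 9.22 and 9.21 in the Prkar1a+/- lesions and 9.85 and 9.88 in the double heterozygote lesions. Prkar1a+/- lesions 2 and 3 lay apart from the rest and the other 3 lesions within the range of bone without lesion. The Hoxc9 difference was -0.40 ± 0.14 (SE; limma adjusted p = 0.0327), and it stayed under 0.05 in 5 of 13 fits that each left out 1 array, those without WT replicate 2 or 4, Prkaca+/- replicate 2 or 4, or Prkar1a+/- lesion 1 (range -0.53 to -0.34, limma adjusted p up to 0.0913).

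Hoxa9, known from blood progenitors and leukaemia as well as from the axis, passed narrowly. Hoxa9 read 5.97, 6.05, 5.89 and 6.25 in the WT arrays and 6.41, 6.04, 6.18 and 6.29 in the Prkaca+/- arrays, against 5.67, 5.64 and 5.95 in the Prkar1a+/- lesions and 6.05 and 5.90 in the double heterozygote lesions. The groups overlapped, with a difference of -0.27 ± 0.11 (SE; limma adjusted p = 0.0480). A second Hoxa9 probe, detected on all 13 arrays, gave 0.15 ± 0.11 (SE; limma adjusted p = 0.283), so the probes disagree in sign. The first probe stayed under 0.05 in 3 of 13 fits that left out 1 array, those without WT replicate 3, Prkaca+/- replicate 2 or Prkar1a+/- lesion 3 (range -0.32 to -0.23, limma adjusted p up to 0.161). Group 9 thus held 1 gene that rose, Hoxb9, beside Hoxc9, Hoxd9 and this Hoxa9 probe, which fell.

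**Figure D3:**
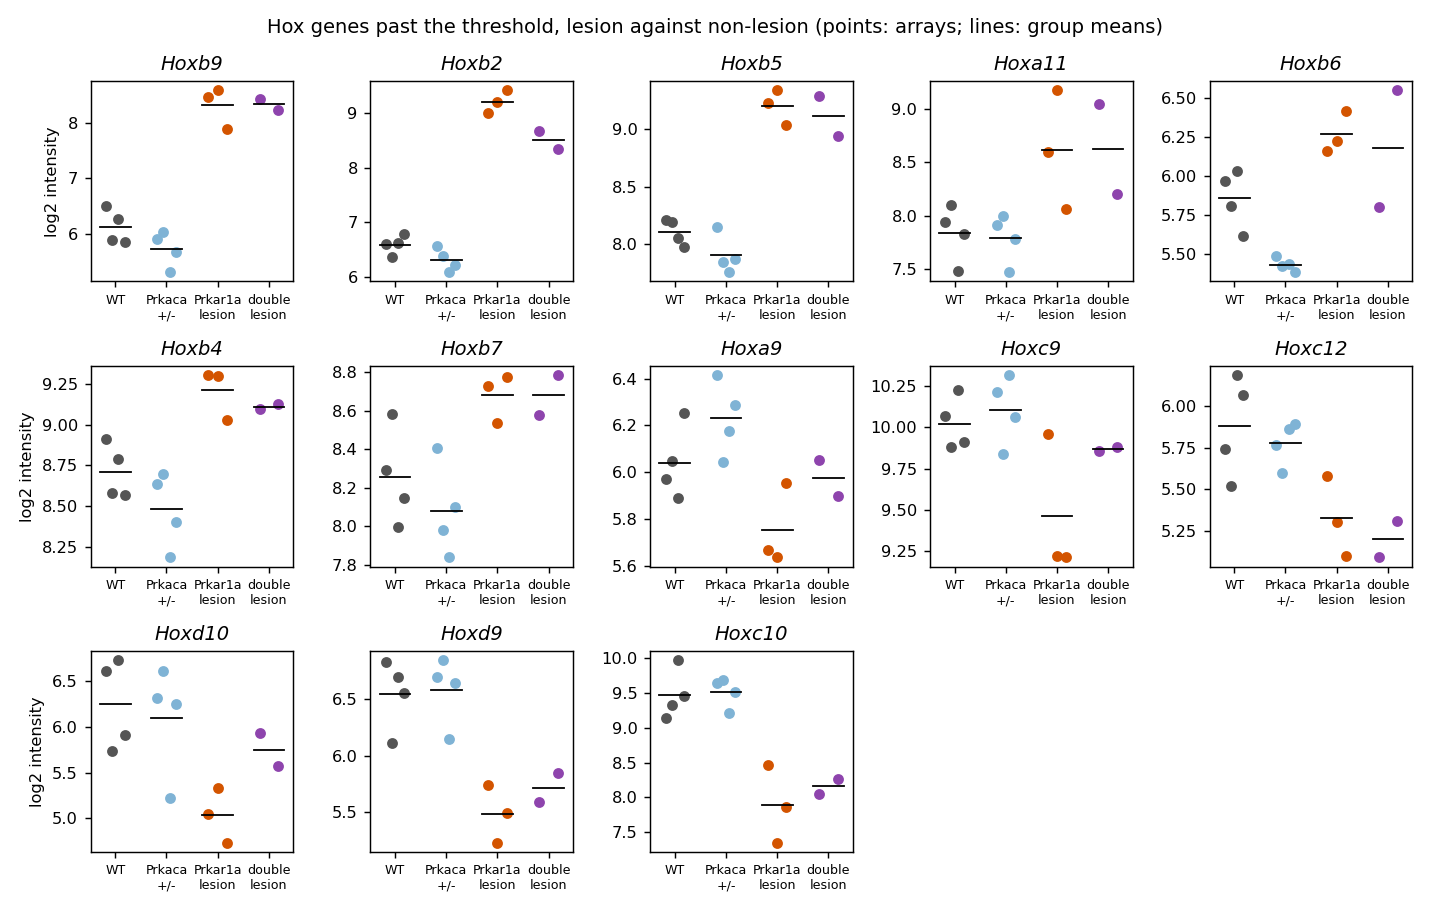
Log2 normalised intensity (vertical axes, scaled for each gene) of the 13 Hox genes past the threshold on each of the 13 arrays (points), by group, with lines for group means. The lesion and other arrays do not overlap for Hoxb2, Hoxb4, Hoxb5, Hoxb9, Hoxc10 and Hoxd9.

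The lesion arrays thus lay wholly on one side for 6 of 25 tested genes, 4 higher and 2 lower, where 14.1% of all tested probes were wholly higher and 13.6% wholly lower. The other 12 tested genes did not pass. Their log2 differences ran from -0.34 for Hoxc11 and -0.32 for Hoxd4 to 0.30 for Hoxa2 and 0.39 for Hoxa5. The 95% interval was -0.67 to -0.01 for Hoxc11, -0.65 to 0.01 for Hoxd4 and 0.01 to 0.76 for Hoxa5. For Hoxa7 it was -0.22 to 0.29 and for Hoxa13 -0.36 to 0.07. A second Hoxa2 probe, detected on 2 lesion arrays only, gave 0.32 (limma adjusted p = 0.0202). Where the probes lie within transcripts was not analysed here. According to RefSeq, 10 of the 25 tested genes overlap another Hox gene or a Hox noncoding gene, among them Hoxb4 with Hoxb3, Hoxd10 with Hoxd11, Hoxa11 with Hoxa11os, Hoxb5 and Hoxb6 with Hoxb5os, and Hoxb2 with Hoxb3os, so the signal of a probe there may stem from a shared stretch.

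The muscle markers moved with the lesions, and the comparison was repeated with their mean log2 intensity on each array as a covariate. Of the 13 genes, Hoxb2, Hoxb4, Hoxb5, Hoxb7, Hoxb9, Hoxc10 and Hoxd9 passed again, and no further Hox gene did. Hoxb2 kept a difference of 2.38 and Hoxb9 of 2.33. Hoxc10 stood at -0.95 and Hoxd9 at -0.71. The 6 that no longer passed were Hoxa11 at 0.50 (limma adjusted p = 0.236), Hoxb6 at 0.57 (0.0613), Hoxa9 at -0.23 (0.350), Hoxc9 at -0.12 (0.712), Hoxc12 at -0.45 (0.132) and Hoxd10 at -0.87 (0.117). Directions were the same for all 13. Hoxb6 lost its call at nearly the same difference (0.58 without the covariate) and Hoxd10 at a larger one (-0.77 without it). The summed muscle intensity did not overlap between lesion and other arrays, so this fit cannot separate muscle from lesion. A lost call may reflect a larger error only, and the share of all probes called in this fit is not given here. Other lists moved too, where 25.1% of all tested probes were higher and 26.2% lower. All 4 tested adipocyte markers, 3 of 4 erythroid and 2 of 2 Schwann cell markers were lower in lesions, and 4 of 5 fibroblast markers and 3 of 3 markers of dividing cells were higher. Of smooth muscle and pericyte markers, 3 of 4 were lower. Of 6 tested keratinocyte and hair markers, 0 were higher and 2 lower. Their summed intensity was 10730 in double heterozygote lesion 1 and 1133 in lesion 2. This sum was 1376 to 5766 in WT bone, 1054 to 2132 in Prkaca+/- bone and 699.5 to 957.2 in Prkar1a+/- lesions. Its part in the Hox differences was not tested. Of immune markers, 3 of 4 for granulocytes, 3 of 5 for T and NK cells and 2 of 3 for macrophages were higher. Cdk1 and Nkg7, counted here as higher, were detected on lesion arrays only, and Top2a and Camp on 1 other array besides. These genes thus entered the test through the lesion arrays. Of 2 tested markers of blood stem and progenitor cells, 0 passed.

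**Figure D4:**
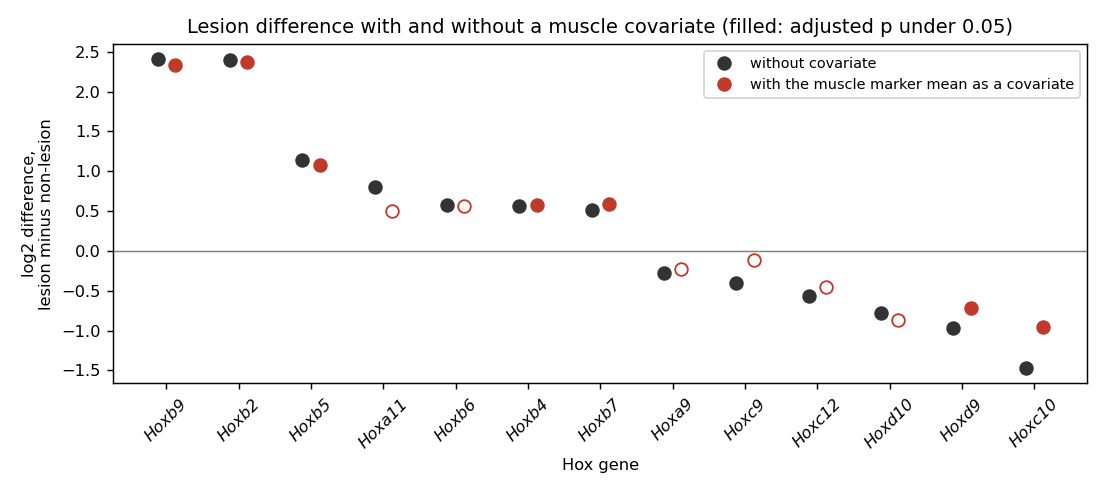
Log2 difference, lesion minus non-lesion, of the 13 Hox genes past the threshold, without a covariate (dark) and with the mean of the skeletal muscle markers as a covariate (red). Open points did not pass an adjusted p of 0.05. Hoxb points barely move, and Hoxc9, Hoxc10, Hoxa11 and Hoxd9 move towards 0.

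Each lesion group was next compared with its own control. In Prkar1a+/- lesions against WT, 5 of 25 Hox genes were higher and 5 lower, where 20% of all tested probes were higher and 19.4% lower. Hoxb2 was 2.61 ± 0.16 (SE) higher on the log2 scale (limma adjusted p = 1.83e-06), Hoxb9 2.20 ± 0.23 (2.90e-05), Hoxb5 1.09 ± 0.14 (0.000167), Hoxa11 0.77 ± 0.27 (0.0349) and Hoxb4 0.50 ± 0.15 (0.0205). Hoxc10 was lower at -1.58 ± 0.25 (SE; limma adjusted p = 0.000568), Hoxd10 at -1.20 ± 0.32 (0.0107), Hoxd9 at -1.06 ± 0.21 (0.00187), Hoxc9 at -0.56 ± 0.19 (0.0324) and Hoxc12 at -0.55 ± 0.18 (0.0254). Calls on Hoxb2, Hoxb5, Hoxb9, Hoxc10 and Hoxd9 were the same in all 13 fits that left out 1 array. Hoxa11 lost its call without WT replicate 1, 3 or 4 or lesion 1 or 2 (limma adjusted p up to 0.188). Hoxb4 lost it without WT replicate 4 or lesion 1 or 2 (up to 0.0813), Hoxc9 without WT replicate 1 or 3 or lesion 2 or 3 (up to 0.148), Hoxc12 without WT replicate 3 or 4 or lesion 2 or 3 (up to 0.111), and Hoxd10, detected in 1 of 3 of these lesions, without lesion 3 (0.0514). With the muscle covariate Hoxb2, Hoxb5 and Hoxb9 passed, and Hoxc10 stood at -0.92 (limma adjusted p = 0.0572) and Hoxd9 at -0.74 (0.147).

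In double heterozygote lesions against Prkaca+/- bone, 6 of 25 Hox genes were higher and 3 lower, where 14.3% of all tested probes were higher and 13.9% lower. All 6 higher genes were Hoxb genes. Hoxb9 was 2.61 ± 0.26 (SE) higher on the log2 scale (limma adjusted p = 4.89e-05), Hoxb2 2.19 ± 0.18 (2.54e-05), Hoxb5 1.20 ± 0.16 (0.000396), Hoxb6 0.75 ± 0.19 (0.0142), Hoxb4 0.63 ± 0.17 (0.0182) and Hoxb7 0.60 ± 0.19 (0.0348). Hoxc10 stood at -1.36 ± 0.28 (SE; limma adjusted p = 0.00522), Hoxd9 at -0.87 ± 0.24 (0.0173) and Hoxc12 at -0.58 ± 0.20 (0.0459). Hoxa11 missed the threshold at 0.83 ± 0.30 (0.0554), and Hoxd10 at -0.35 ± 0.37 (0.507). This group has 2 lesion arrays, and the fit without one assumes that the lone array varies like the other groups. Without double heterozygote lesion 1 there were 4 calls, all higher, with Hoxb4, Hoxb7, Hoxc10, Hoxc12 and Hoxd9 lost (limma adjusted p from 0.0597 for Hoxc10 to 0.256 for Hoxc12). Without double heterozygote lesion 2 there were 5, with Hoxa11 gained and Hoxb4, Hoxb6, Hoxb7, Hoxc12 and Hoxd9 lost, and Hoxb6 fell to 0.37 (limma adjusted p = 0.214). Hoxb7 was also lost without Prkaca+/- replicate 2, 3 or 4, and Hoxc12 without Prkaca+/- replicate 1, 3 or 4, WT replicate 1 or 4, or Prkar1a+/- lesion 2. Hoxb2, Hoxb5 and Hoxb9 passed in all 13 fits that left out 1 array. With the muscle covariate Hoxb2, Hoxb5, Hoxb6, Hoxb9 and Hoxc10 passed, and Hoxb4 stood at 0.64 (limma adjusted p = 0.0535) and Hoxd9 at -0.69 (0.0816).

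**Figure D5:**
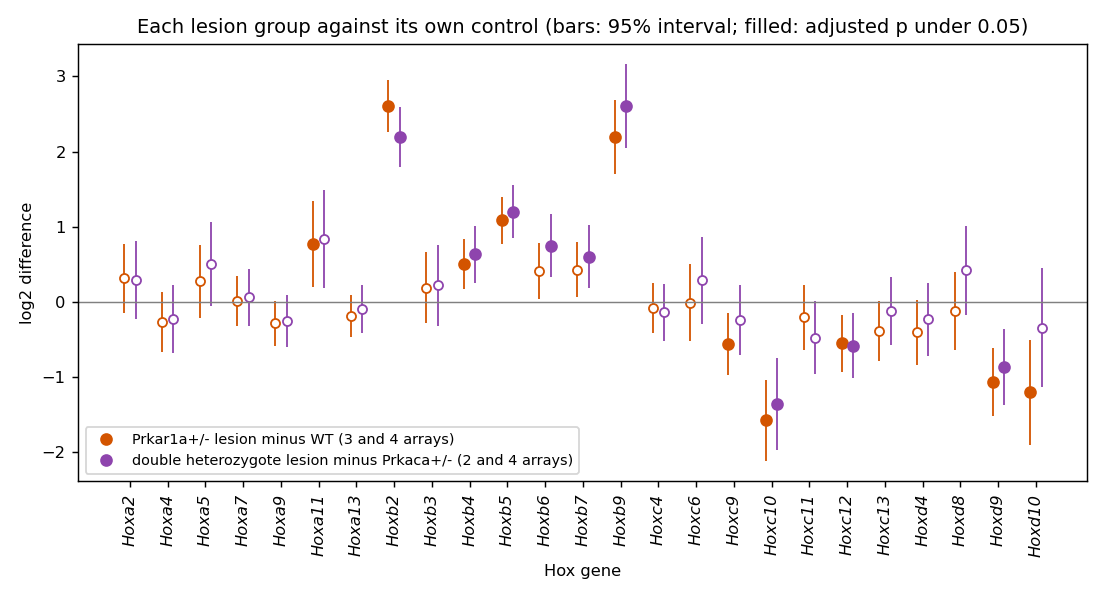
Log2 difference of each tested Hox gene in Prkar1a+/- lesions against WT (orange) and in double heterozygote lesions against Prkaca+/- bone (purple), with 95% intervals. Filled points passed an adjusted p of 0.05. Hoxb2 and Hoxb9 lie near or above 2 in both, and the intervals of both colours overlap for every gene.

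Whether the lesion effect differed between the 2 genotypes was tested as an interaction, and 0 of 25 Hox genes and 0 of 16226 probes passed with limma (0 Hox genes and 2.37% of probes at an unadjusted p under 0.05). The values ran from -0.41 ± 0.24 (SE; unadjusted p = 0.114 in the limma fit) for Hoxb2 to 0.86 ± 0.49 (SE; unadjusted p = 0.104) for Hoxd10. For Hoxb2 the 95% interval was -0.94 to 0.11. Double heterozygote lesions against Prkar1a+/- lesions also gave 0 calls by limma over all probes, with 3.4% of probes and 1 Hox gene at an unadjusted p under 0.05. That gene was Hoxb2, 0.70 lower at -0.70 ± 0.19 (SE; limma unadjusted p = 0.00320, adjusted p = 1.00), with both double heterozygote values below all 3 others, as 8.03% of all tested probes were. Prkaca+/- bone against WT gave 0 calls by limma, with 1.62% of probes and 1 Hox gene, Hoxb6, at an unadjusted p under 0.05. Hoxb6 stood at -0.43 ± 0.16 (SE; limma unadjusted p = 0.0184, adjusted p = 1), with all 4 Prkaca+/- arrays below all 4 WT arrays, as 0.549% of all tested probes were.

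Genes that work with the Hox proteins or act on their clusters were read from fixed lists, in lesion against non-lesion, where 25.1% of all tested probes were higher and 26.2% lower. Of 7 measured cofactors of the TALE family, which bind DNA beside Hox proteins, 2 were higher and 2 lower. Meis2 was higher by 0.65 ± 0.16 (SE; limma adjusted p = 0.00471) on the log2 scale and Pknox1 by 0.44 ± 0.14 (0.0163), and Pknox2 stood at -1.27 ± 0.26 (0.00142) and Meis1 at -0.65 ± 0.10 (0.000262). Of 19 tested Polycomb and trithorax genes, which keep Hox clusters silent or active, 3 were higher and 2 lower. Cbx7, a reader of the Polycomb mark, stood at -1.15 ± 0.13 (SE; limma adjusted p = 3.24e-05) and Ash2l, part of the trithorax-type methyltransferase complexes, at -0.52 ± 0.12 (0.00323), with Phc2 at 0.50 ± 0.12 (0.00390) and Rnf2 at 0.36 ± 0.10 (0.0121). Of the 11 listed noncoding genes of the clusters, such as Hotair and Hottip, 0 had a probe named for them.

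Retinoic acid and the Cdx factors set Hox expression in the embryo, and of 10 tested genes of this list 3 were higher and 2 lower, beside the same 25.1% and 26.2% of all tested probes. Aldh1a1, which makes retinoic acid, stood at -2.13 ± 0.36 (SE; limma adjusted p = 0.000387) and its receptor gene Rarb at -1.32 ± 0.26 (0.00105). Cyp26b1, which breaks retinoic acid down, was higher by 0.68 ± 0.21 (0.0175) and Crabp1, which binds it in the cytoplasm, by 0.51 ± 0.10 (0.00102). Cdx2 and Cdx4 were detected on no array. Of 13 tested other homeobox and T-box genes of skeletal patterning, 6 were higher and 3 lower, with Dlx3 at 1.58 ± 0.23 (SE; limma adjusted p = 0.000123), Pax1 at 0.97 ± 0.22 (0.00247), Tbx18 at 0.78 ± 0.24 (0.0160) and Meox2 at -1.13 ± 0.27 (0.00341). Dlx5, among those higher, was detected on lesion arrays only and so entered the test through them. Of 17 tested genes that flank the 4 clusters, 4 were higher and 6 lower. Snx10 and Skap2, beside the Hoxa cluster, were higher by 1.84 ± 0.15 (SE; limma adjusted p = 2.17e-06) and 1.63 ± 0.20 (3.97e-05), and Atp5g1, beside Hoxb, and Calcoco1, beside Hoxc, stood at -1.0 ± 0.16 (0.000280) and -0.90 ± 0.15 (0.000393).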

How the data were processed

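Total RNA of 13 samples was amplified to biotinylated cRNA for Illumina arrays, per the labels' protocols. The deposited table that is not normalised holds a linear signal intensity and a detection p-value for 25697 probes on each array, per the file headers, with the intensity empty where the deposited detection p-value was above 0.1. The deposited scores of a second table are those intensities centred and scaled within each array, and served as an alternative. No source used here names the scanner or its settings. The design named normexp correction, which needs all intensities. The background mean and SD of each array therefore came from a fitted line. It related intensity to normal quantiles of the detection p-values between 0.01 and 0.1. The same line filled the empty intensities, among them 11 of 325 values of the probes that stand for the tested Hox genes. Normexp, an offset of 16, quantile normalisation and log2 followed.

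Probes detected (p under 0.01) on at least 2 arrays were tested, 16226 in all, with limma 3.58.1 in R 4.3.3 (4 group means, eBayes, 9 residual degrees of freedom, Benjamini-Hochberg over all tested probes, threshold 0.05). Lesion against non-lesion is the mean of both lesion groups minus that of both others. The tested probe with the highest mean stands for a gene, and symbols come from the platform annotation. The Hox genes and all lists were chosen with earlier results of these data known. By the rule for named genes, values on every array are given for Hox genes past the threshold in any comparison, and in other lists at most 4 genes past it, largest first. The fit was tested on simulated data. Alternatives covered detection, background correction, offset, scaling, filters, scores, probe choice, a muscle covariate, a replicate block and leaving out each array. Correlations between same-numbered samples of different groups ran from -0.24 to 0.36, with 6 of 16 over 0.1. No values for differently numbered samples are given beside them, so whether the numbers pair the samples cannot be told.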

Additional observations from a re-analysis of the deposited data

Results flagged for a closer look

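One value stood apart from its group. Hoxd4 in Prkaca+/- replicate 2 was 6.71 on the log2 intensity scale, while the other 3 Prkaca+/- arrays lay between 6.11 and 6.17, and the gap made up 0.896 of the range of the group. Of 50 groups of 4 arrays examined (25 Hox genes in the WT and Prkaca+/- groups), this 1 was beyond the critical value of Dixon's test, which chance passes in about 1 of 20. Hoxd4 did not pass the test in any comparison.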

How the results depend on the processing

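No Hox gene that passed changed direction under any alternative run. The alternative for probe choice took the probe with the lowest adjusted p, so it was bound to keep every call. The second Hoxa9 probe had the other sign, at 0.15 in lesion against non-lesion. The number of Hox genes detected on all arrays was 19, and 20 with a detection p under 0.05. The share of all tested probes called in each alternative fit is not given beside the counts below. A change in such a count is therefore not a result about Hox genes. With the mean of the skeletal muscle markers as a covariate, calls numbered 7 in lesion against non-lesion (2 lower), 3 in Prkar1a+/- lesion against WT (3 higher, 0 lower) and 5 in double heterozygote lesion against Prkaca+/- (1 lower), against 13, 10 and 9 without it. Among probes detected on all 13 arrays, Prkar1a+/- lesion against WT had 3 lower calls against 5, since fewer genes were tested. Among the same probes Hoxa11 gained a call in double heterozygote lesion against Prkaca+/- (limma adjusted p = 0.0480). Leaving out 1 array at a time gave 10 to 14 calls in lesion against non-lesion (7 to 8 higher, 3 to 6 lower), 6 to 11 in Prkar1a+/- lesion against WT (3 to 6 higher, 2 to 6 lower) and 4 to 10 in double heterozygote lesion against Prkaca+/- (4 to 7 higher, 0 to 3 lower), and 0 in the 3 other comparisons. With a replicate block the calls numbered 13, 9 and 6. The block ended the calls of Hoxa9 in lesion against non-lesion (limma adjusted p = 0.144) and Hoxc12 in Prkar1a+/- lesion against WT (0.0613). In double heterozygote lesion against Prkaca+/- it ended those of Hoxb4 (0.0588), Hoxb7 (0.107) and Hoxc12 (0.131). Hoxc11 gained a call in lesion against non-lesion (limma adjusted p = 0.0218). Whether the replicate numbers pair the samples cannot be told. Hoxa9 also missed the threshold without background correction (limma adjusted p = 0.0815), with an offset of 50 (0.0644) and with 75th percentile scaling (0.139). On the deposited scores 6 calls ended, Hoxb6 (0.756) and Hoxc9 (0.123) in lesion against non-lesion, Hoxa11 (0.0679) and Hoxc9 (0.114) in Prkar1a+/- lesion against WT, and Hoxb6 (0.548) and Hoxc12 (0.161) in double heterozygote lesion against Prkaca+/-. The scores also gained Hoxc11 (limma adjusted p = 0.0191) in lesion against non-lesion. In Prkar1a+/- lesion against WT they gained Hoxb7 (0.0272), Hoxa9 (0.0319) and Hoxa13 (0.0490). Hoxb7 was also gained there without background correction (0.0479). With no filter on detection Hoxa11 missed the threshold in Prkar1a+/- lesion against WT (limma adjusted p = 0.0547). Hoxc12 in double heterozygote lesion against Prkaca+/- missed it with no filter (0.0551), without background correction (0.0920) and with an offset of 50 (0.0760). The cause was not tested. A bead chip block was not run, because the file headers name no chip. Genes near background, such as Hoxc4, Hoxc11 and Hoxd10, are limited by the signal over background.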
